A study of Mus musculus with 10 samples.

Results

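Cytokine receptors are the surface proteins through which hematopoietic stem cells (HSCs) receive growth factors, interleukins, interferons and tumor necrosis factor. The genes described here are 34 cytokine receptor genes picked by symbol, and all 34 were present among the 26146 genes of the count table. RNA was sequenced in bulk from HSCs sorted as LSK CD48- CD150+ cells (lineage-negative, Sca-1-positive, Kit-positive cells) of 5 *Cited2* CTL and 5 *Cited2* CKO mice on a C57BL/6J background, aged 8 to 12 weeks, with 1 library per mouse and no treatment. *Cited2* CTL mice, which the labels call wildtype, were *Cited2* fl/fl without Cre. *Cited2* CKO mice were *Cited2* fl/fl with *Vav-iCre*, so that both groups carried the floxed alleles. The Vav regulatory elements drive Cre throughout the hematopoietic system, not in HSCs alone, and the controls had no Cre, so an effect of Cre and an effect of the lost gene cannot be told apart.

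Most cytokine receptors have no enzyme activity of their own. Their chains bind JAK kinases, and binding of a ligand brings chains together, activates the kinases and leads to phosphorylation of STAT transcription factors. Many receptors pair a chain that recognizes a single ligand with a chain shared by several receptors, such as the common beta chain, gp130 or the common gamma chain, while others are receptor tyrosine kinases or signal through MyD88 and TRAF adaptors. In HSCs, cytokine receptors are known for their part in survival, quiescence, inflammatory activation and lineage choice.

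The deleted gene went against the label of 1 library. *Cited2* (chromosome 10, 17723218 to 17725674 of GRCm38) was expressed at 101 to 222 CPM (counts relative to the TMM-normalized total of a library) in the *Cited2* CTL libraries. The *Cited2* CKO libraries 1, 2, 4 and 5 had 3.80, 4.21, 5.00 and 8.30 CPM. In the library labelled CKO 3 its level was 120.1 CPM, within the range of the controls. It was kept in its labelled group, and the 7 receptor genes with an unadjusted p under 0.05 are also given without it. Total counts lay between 3058690 and 4548795 per library, and 0.196% to 0.239% of them fell on the receptor genes, with the lowest share in the library labelled CKO 3. All 16 HSC marker genes were detected, with a summed level of 3590 to 4017 CPM in *Cited2* CTL and 3263 to 3669 CPM in *Cited2* CKO libraries. Of 9 lists of markers of other cells, only the mast cell and basophil list (9 genes) separated the genotypes. Its sum was 36.8 to 62.9 CPM in *Cited2* CTL and 75.6 to 148 CPM in *Cited2* CKO libraries, made up mainly of *Cpa3* (36.6 against 72.0 CPM) and *Fcer1a* (4.72 against 31.3 CPM). Neither reached an adjusted p under 0.05 in edgeR's quasi-likelihood test (0.0986 and 0.0729). The means of *Mcpt8* (1.69 against 1.58 CPM) and *Gzmb* (0.745 against 0.325 CPM) were lower in *Cited2* CKO libraries, and those of the other genes of the list were higher. Of its 9 genes, 2 stayed under 1 CPM in every library, and *Tpsb2*, a mast cell tryptase, was at 0 in the 5 *Cited2* CTL libraries and reached at most 0.236 CPM in *Cited2* CKO libraries. The part of such cells in the receptor values was not tested. In bulk RNA, fewer cells that express a receptor and less receptor RNA per cell cannot be told apart.

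In control HSCs the receptor genes spanned a wide range of levels. Compared per length, as CPM per kilobase of the deposited gene length, 20 of the 34 genes were at 10 or more in *Cited2* CTL HSCs, 11 were between 1 and 10, and 3 were under 1. The median receptor gene stood at percentile 49.4 of the 14165 tested genes on this scale. The highest was *Il2rg*, which encodes the common gamma chain shared by the receptors of IL-2, IL-4, IL-7, IL-15 and IL-21, at 117 ± 12.0 CPM per kilobase (SD, n = 5). Next came *Ifngr1*, the ligand-binding chain of the interferon gamma receptor, at 94.4 ± 6.18, and *Tnfrsf1a*, the TNF receptor that carries a death domain, at 54.7 ± 1.98 CPM per kilobase. *Il17ra*, the common chain of IL-17 receptors, followed with 43.8 ± 5.94, and *Il11ra1*, the ligand-binding chain of the IL-11 receptor, with 38.6 ± 3.64 CPM per kilobase. The ranges of the first 3 did not overlap with those of their neighbors in this order, but some gaps were very narrow. The lowest control value of *Il2rg* was 104.68 against a highest of 104.62 for *Ifngr1*. For *Tnfrsf1a* the lowest was 52.6, against a highest of 52.2 for *Il17ra*. The deposited length of *Il17ra* was 3970 bases, while its longest GENCODE transcript holds 7668 different stretches of the length of a read. Its place in this order rests on the deposited length, and other lengths were not tested.

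Further down, neighbors were rarely distinct. The control ranges of 29 of the 33 pairs of neighbors in the order overlapped, and the only other gap lay between *Il12rb1* and *Il3ra*. It was narrow too, with a lowest value of 6.47 for *Il12rb1* and a highest of 6.44 for *Il3ra*. At the bottom stood *Csf1r*, the receptor of M-CSF on monocytes and macrophages, with 0.781 ± 0.516, *Il13ra1*, a chain of the IL-13 receptor, with 0.743 ± 0.414, and *Lifr*, the receptor of leukemia inhibitory factor, with 0.237 ± 0.395 CPM per kilobase (SD, n = 5). Each of these 3 had a control library with at most 5 counts, and the error of their levels was correspondingly large. The receptor genes varied among *Cited2* CTL mice with a median coefficient of variation of 14.6%, against 17.1% over all tested genes.

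**Figure D1:**
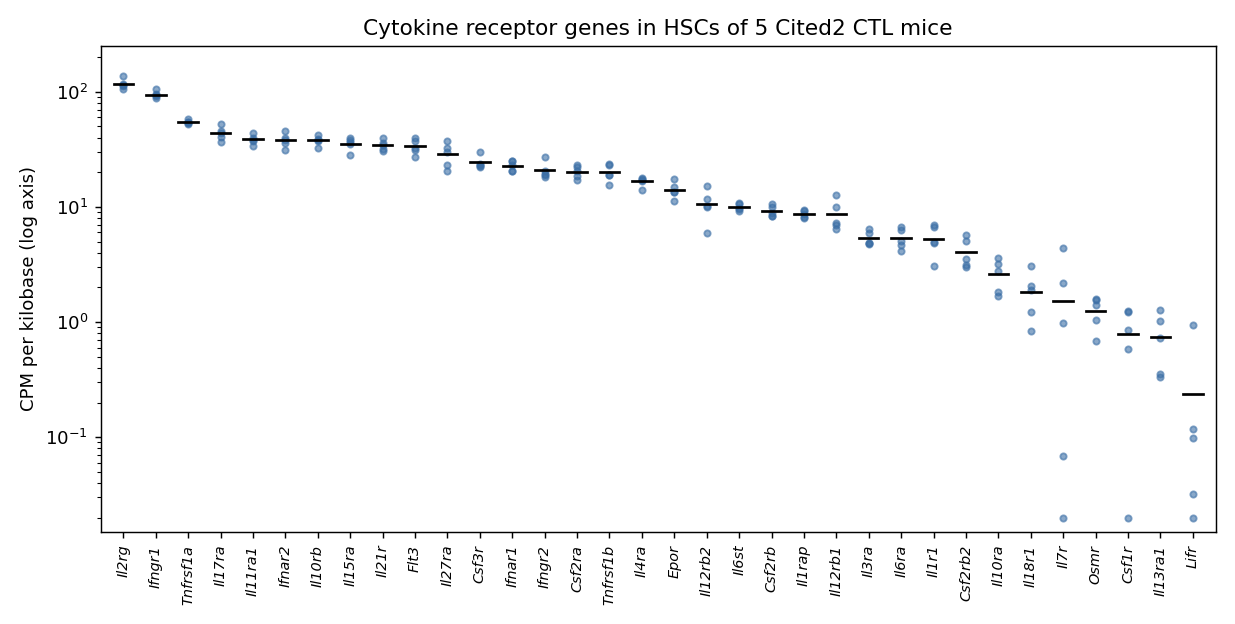
Level of the 34 cytokine receptor genes in HSCs of *Cited2* CTL mice, in CPM per kilobase of gene length on a log axis. Points are the 5 libraries, lines are means, and values under 0.02 are drawn at 0.02. *Il2rg*, with a mean of 117, and *Ifngr1*, with 94.4, stand above the rest, and *Lifr*, with 0.237, is lowest.

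The genotypes were compared over all tested genes. No receptor gene was called by the quasi-likelihood test of edgeR at a Benjamini-Hochberg adjusted p under 0.05 and a fold change above 20%, thresholds at which 0.226% of all tested genes were called. The same test without the library labelled CKO 3 called 1 receptor gene, *Il10ra*, against 0.292% of tested genes, DESeq2's Wald test called 2, *Il10ra* and *Il11ra1*, against 2.43%, and limma-voom called 0. At an unadjusted p under 0.05 the count was 7 of 34 receptor genes, where 12.9% of all tested genes were below that value. Of these 7, *Il10ra*, *Il1r1*, *Lifr*, *Ifnar2* and *Il2rg* were higher in *Cited2* CKO HSCs (5.80% of tested genes were) and *Il11ra1* and *Flt3* were lower (7.08%). Without the library labelled CKO 3, 6 receptor genes had such a p, against 11.4% of tested genes.

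Most differences were small. The fitted log2 fold change was above 0 for 21 receptor genes and below 0 for 13, with 51.0% of all tested genes above 0. Its median was 0.11 over the receptor genes and 0.0065 over all tested genes, and the median of its absolute value was 0.21 and 0.17. In CPM, *Il1r1* was higher in every *Cited2* CKO library than in every *Cited2* CTL library and *Il11ra1* lower. Such a lack of overlap was seen in 3.33% of tested genes (1.35% higher, 1.98% lower). Without the library labelled CKO 3, *Il10ra* joined *Il1r1* with no overlap, and 4.99% of tested genes had none (2.28% higher, 2.71% lower). Of the 5 *Cited2* CKO libraries, the library labelled CKO 3 had the lowest CPM for 14 of the 34 receptor genes, against 20.4% of tested genes. CKO 5 was lowest for 10 (26% of tested genes), CKO 4 for 6 (21.9%), CKO 2 for 3 (15.1%) and CKO 1 for 1 (16.5%).

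**Figure D2:**
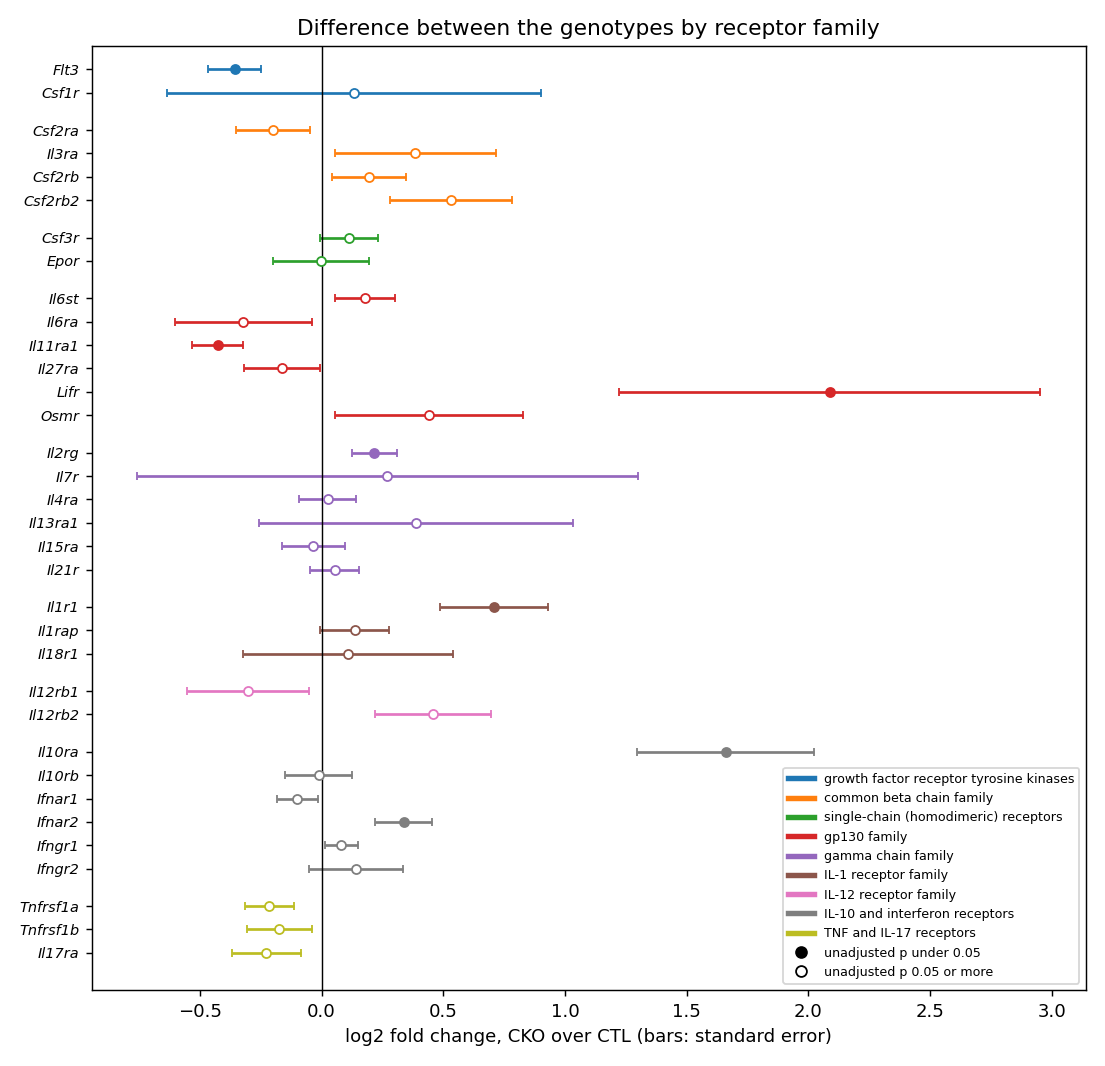
Log2 fold change between *Cited2* CKO and *Cited2* CTL HSCs for the 34 receptor genes, grouped by receptor family, with bars for the standard error (5 libraries per genotype). Filled points have an unadjusted p under 0.05. *Il10ra* at 1.66 and *Lifr* at 2.09 lie farthest from 0, and all 3 TNF and IL-17 receptors lie below 0.

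*Il10ra* (chromosome 9, 45253837 to 45269149 of GRCm38) encodes the ligand-binding chain of the receptor of IL-10, an anti-inflammatory cytokine. It was expressed at 9.70, 6.31, 5.88, 11.2 and 12.5 CPM in the *Cited2* CTL libraries 1 to 5. The values in the *Cited2* CKO libraries 1 to 5 were 35.9, 38.1, 8.75, 25.6 and 36.6 CPM. All *Cited2* CKO libraries lay above all controls with the exception of the library labelled CKO 3, which lay among the controls. The log2 fold change was 1.66 (standard error, SE, 0.36, edgeR adjusted p = 0.0781). Without the library labelled CKO 3 it was 1.89 (edgeR adjusted p = 0.00584), and DESeq2 gave 1.67 with all libraries (adjusted p = 0.00215). The adjusted p of *Il10ra* lay between 0.00215 and 0.241 over the 17 alternatives tried. The mast cell and basophil marker sum was also lowest in the library labelled CKO 3 among the *Cited2* CKO libraries, at 75.6 CPM, which was above every control. The part of such cells in the values of *Il10ra* was not tested.

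*Il10rb*, the signaling partner chain of the IL-10 receptor, which also serves IL-22 and interferon lambda receptors, was expressed at 69.9 ± 6.76 CPM in *Cited2* CTL mice and 69.4 ± 13.0 CPM in *Cited2* CKO mice (SD, n = 5 each), with a log2 fold change of -0.01 (SE 0.14). Per length, the ratio of *Il10ra* to *Il10rb* was 0.0426 to 0.0955 within the *Cited2* CTL libraries and 0.0965 to 0.304 within the *Cited2* CKO libraries. Among the 20 pairs of receptor chains compared, this was the 1 pair whose ratio did not overlap between the genotypes, and the lowest *Cited2* CKO value, that of the library labelled CKO 3, exceeded the highest control by little. Without that library the lowest *Cited2* CKO ratio was 0.179. The share of ratios without overlap was not computed over all genes. In CPM, 3.33% of single tested genes had no overlap. Some of the pairs, such as *Tnfrsf1a* with *Tnfrsf1b*, are not chains of the same receptor.

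Of the 4 interferon receptor genes, *Ifnar2* alone had an unadjusted p under 0.05. *Ifnar2* (chromosome 16, 91372783 to 91405589 of GRCm38), the chain of the type I interferon receptor that binds interferon most tightly, was expressed at 99.3, 119.98, 126, 115 and 146 CPM in the *Cited2* CTL libraries 1 to 5. Its CPM in the *Cited2* CKO libraries 1 to 5 was 175, 181, 139, 134 and 139. The libraries CKO 1 and CKO 2 lay above all controls, while the other 3 lay below the highest control. The fitted log2 fold change of *Ifnar2* was 0.34 (SE 0.12, unadjusted p = 0.0118, edgeR adjusted p = 0.251), and 0.37 without the library labelled CKO 3 (edgeR adjusted p = 0.241). Its partner *Ifnar1* had 159.9 ± 16.5 and 149 ± 9.95 CPM (SD, n = 5 each), with a log2 fold change of -0.10 (SE 0.08), and per length it stood at 0.608 of *Ifnar2* in *Cited2* CTL mice and 0.450 in *Cited2* CKO mice, with overlapping ranges.

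*Ifngr1* was expressed at 186, 191, 199, 219.6 and 196 CPM in the *Cited2* CTL libraries 1 to 5 and at 208, 208, 192, 220.5 and 219 CPM in the *Cited2* CKO libraries 1 to 5. It was the receptor gene with the smallest SE, with a log2 fold change of 0.08 (SE 0.07). *Ifngr2*, the signaling chain, was at 37.9 to 56.2 CPM in *Cited2* CTL and 35.5 to 71.9 CPM in *Cited2* CKO libraries, with a log2 fold change of 0.14 (SE 0.19). Per length, *Ifngr1* stood at 4.65 times the level of *Ifngr2* in *Cited2* CTL and at 4.62 times in *Cited2* CKO HSCs. The deposited length of *Ifngr2* was 2070 bases, while its longest GENCODE transcript holds 3624 different stretches of 85 bases. *Ifnar2*, *Il10rb*, *Ifnar1* and *Ifngr2* lie in this order on the plus strand of chromosome 16. Of the 85-base stretches of *Ifnar2* and *Il10rb*, 7.80% and 18.1% also belong to *Gm21970* on the same strand. *Gm21970* is absent from the count table.

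**Figure D3:**
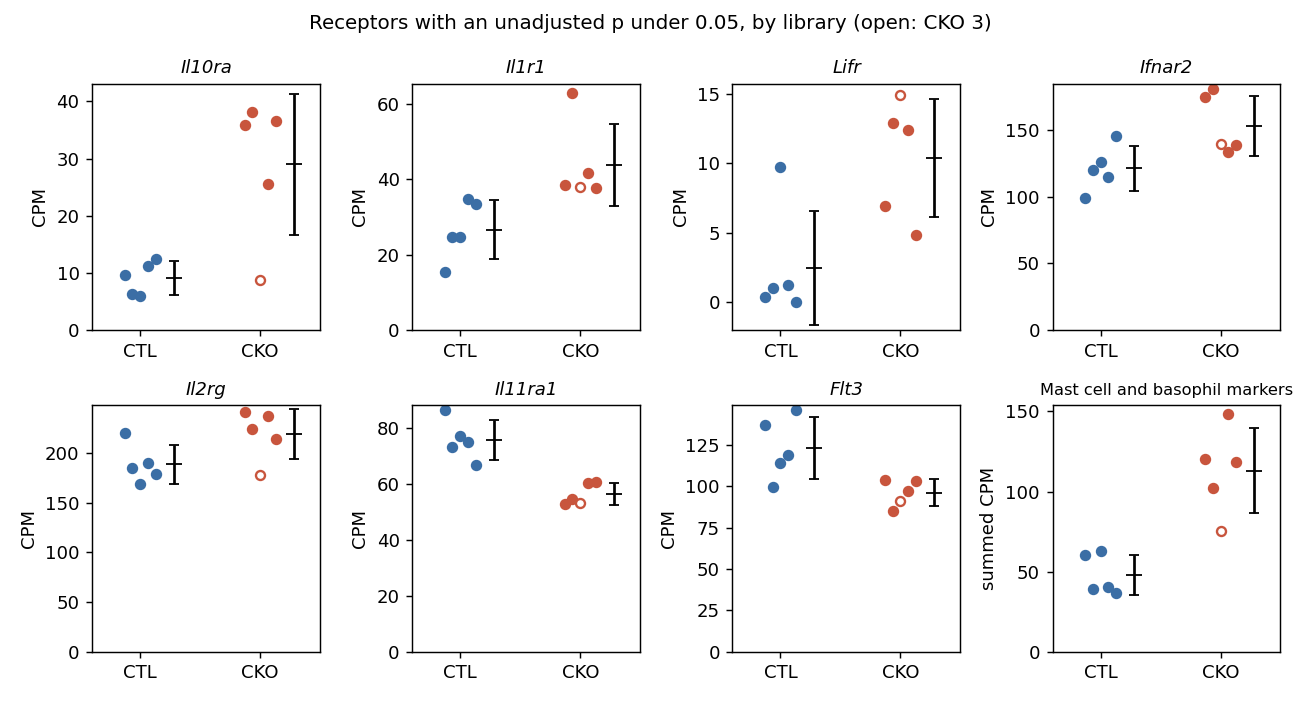
CPM in each library for the 7 receptor genes with an unadjusted p under 0.05, and the summed CPM of 9 mast cell and basophil markers. Each point is 1 of 5 libraries per genotype (blue, *Cited2* CTL; red, *Cited2* CKO; open, the library labelled CKO 3), with mean and SD beside the points. The open point lies among the controls for *Il10ra*, at 8.75 CPM, and with the other *Cited2* CKO libraries for *Il1r1* and *Il11ra1*.

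The IL-1 receptor family was led by *Il1rap*, the accessory chain that IL-1 and IL-33 receptors share, at 8.70 ± 0.597 CPM per kilobase in control HSCs. *Il1r1* (chromosome 1, 40225080 to 40317257 of GRCm38), the signaling receptor of IL-1, was expressed at 15.4, 24.8, 24.7, 34.9 and 33.5 CPM in the *Cited2* CTL libraries 1 to 5. In the *Cited2* CKO libraries 1 to 5 it was expressed at 38.5, 63.1, 38.1, 41.7 and 37.8 CPM. Every *Cited2* CKO library lay above every control, the library labelled CKO 3 included, with the narrowest gap between CKO 5 and CTL 4. The log2 fold change of *Il1r1* was 0.71 (SE 0.22, unadjusted p = 0.00641, edgeR adjusted p = 0.208). Without the library labelled CKO 3 it was 0.75 (edgeR adjusted p = 0.214). Leaving out each library in turn gave 0.54 to 0.82, and no alternative gave an adjusted p under 0.0807. *Il1rap* had a log2 fold change of 0.14 (SE 0.14), and *Il18r1*, the ligand-binding chain of the IL-18 receptor, of 0.11 (SE 0.43). All 3 log2 fold changes of the family were above 0, but with the GC and length offset per library that of *Il1rap* was -0.105. Over the 10 libraries, *Il1rap* ranged from 53.7 to 97.96 CPM and *Il18r1* from 3.55 to 14.6 CPM. *Il1r1* and *Il18r1* lie in the same region of chromosome 1.

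The gp130 family held *Il11ra1* and *Lifr* among the genes with an unadjusted p under 0.05. *Il6st* encodes gp130, the signal transducer of the IL-6 family, and was expressed at 54.7 ± 3.57 CPM in *Cited2* CTL mice and 61.7 ± 9.42 CPM in *Cited2* CKO mice (SD, n = 5 each). *Il11ra1* (chromosome 4, 41699989 to 41769474 of GRCm38) was expressed at 86.3, 73.3, 77.0, 75.1 and 66.5 CPM in the *Cited2* CTL libraries 1 to 5. The values in the *Cited2* CKO libraries 1 to 5 were 52.8, 54.4, 52.9, 60.3 and 60.6 CPM. Each *Cited2* CKO library lay below each control. The log2 fold change of *Il11ra1* was -0.43 (SE 0.10, unadjusted p = 0.00112, edgeR adjusted p = 0.108), DESeq2's adjusted p was 0.0168, and without the library labelled CKO 3 the log2 fold change was -0.40 (edgeR adjusted p = 0.168). Corrected for GC content and gene length by an offset per library, it was -0.28 (edgeR adjusted p = 0.628). Per length, *Il11ra1* stood at 3.86 times the level of *Il6st* in *Cited2* CTL and 2.58 times in *Cited2* CKO HSCs, with ranges of 3.20 to 4.26 and 2.26 to 3.48.

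*Il11ra1* has near-identical copies in the mouse genome, so its reads could be shared. Of all 85-base stretches of its longest transcript (the read length was 85 bases), 47.0% also occur in *Gm13305* and 17.5% in *Il11ra2*. *Gm13305* had at most 0.875 CPM in any library and *Il11ra2* was at 0 in all 10. The coding sequences of *Il11ra1* and *Gm13305* are 99.0% identical, with 13 differences in 1296 bases and an identical run of up to 356 bases. Of 1212 windows of 85 coding bases, 46.5% are identical in both genes. A window with the most differences, coding bases 1032 to 1116 of both genes, is shown with the 4 differing bases in capitals. Bases are counted from the start codon and read from the GENCODE annotation of GRCm38.
Il11ra1: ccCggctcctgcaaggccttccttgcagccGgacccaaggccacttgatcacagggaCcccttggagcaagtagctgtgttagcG
Gm13305: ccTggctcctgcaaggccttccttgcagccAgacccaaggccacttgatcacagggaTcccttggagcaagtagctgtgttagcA

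*Lifr* (chromosome 15, 7090614 to 7197489 of GRCm38) was the least expressed receptor gene in control HSCs. Its CPM was 0.334, 1.01, 9.70, 1.22 and 0 in the *Cited2* CTL libraries 1 to 5. In the *Cited2* CKO libraries 1 to 5 it was 6.89, 12.9, 14.9, 12.3 and 4.84. The library CTL 3 stood with the *Cited2* CKO libraries, and the other 4 controls lay below all of them. These values came from 0 to 33 counts per *Cited2* CTL library and 21 to 63 per *Cited2* CKO library. The fitted log2 fold change of *Lifr* was 2.09 (SE 0.86, unadjusted p = 0.0300, edgeR adjusted p = 0.336) and without the library CTL 3 it was 3.94 (edgeR adjusted p = 0.0797). Without the library labelled CKO 3 it was 1.92 (unadjusted p = 0.0621). The remaining chains of the family had no unadjusted p under 0.05. *Osmr*, the oncostatin M receptor, had a log2 fold change of 0.44 (SE 0.39), *Il6ra*, the ligand-binding chain of the IL-6 receptor, of -0.32 (SE 0.28), and *Il27ra*, a chain of the IL-27 receptor, of -0.16 (SE 0.16) and 0.0204 with the GC and length offset. Over the 10 libraries, *Osmr* ranged from 3.28 to 11.9 CPM, *Il6ra* from 6.68 to 22.2 CPM and *Il27ra* from 54.4 to 98.98 CPM.

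In the gamma chain family, *Il2rg* (chromosome X, 101264378 to 101268255 of GRCm38) was expressed at 220.4, 185, 169, 189.6 and 179 CPM in the *Cited2* CTL libraries 1 to 5. Its CPM in the *Cited2* CKO libraries 1 to 5 was 241, 224, 178, 238 and 214. CKO 1, CKO 2 and CKO 4 lay above all controls, and the library labelled CKO 3 lay below most of them. The log2 fold change of *Il2rg* was 0.22 (SE 0.09, unadjusted p = 0.0355, edgeR adjusted p = 0.356), and 0.28 without the library labelled CKO 3 (edgeR adjusted p = 0.180). Of the 85-base stretches of *Il2rg*, 40.7% also belong to *Gm20489*, a readthrough gene on the same strand that is absent from the count table.

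The other genes grouped with the gamma chain were all below *Il2rg* per length. *Il15ra*, the high-affinity chain of the IL-15 receptor, and *Il21r*, the IL-21 receptor, were at 35.5 ± 4.44 and 34.5 ± 3.46 CPM per kilobase in control HSCs (SD, n = 5), and their log2 fold changes were -0.03 (SE 0.13) and 0.05 (SE 0.10). *Il4ra*, the ligand-binding chain of the IL-4 receptor, was at 16.6 ± 1.51 CPM per kilobase with a log2 fold change of 0.03 (SE 0.12). *Il7r*, which marks lymphoid progenitors, was uneven among mice, with 0 to 48 counts per control library, 0 to 45 per *Cited2* CKO library and a SE of 1.03 around a log2 fold change of 0.27. *Il13ra1*, whose chain pairs with that of *Il4ra* and not with the gamma chain, had a log2 fold change of 0.39 (SE 0.65) from 4 to 26 counts per library. *Il7r* had -0.060 and *Il13ra1* 0.093 without the library labelled CKO 3. For both genes the SE was near or above the size of the log2 fold change of *Il1r1*.

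*Flt3* (chromosome 5, 147330741 to 147400489 of GRCm38) encodes a receptor tyrosine kinase whose RNA and protein increase as HSCs become lymphoid-primed progenitors. It was expressed at 137, 99.5, 114, 119 and 146 CPM in the *Cited2* CTL libraries 1 to 5. In the *Cited2* CKO libraries 1 to 5 it was expressed at 104, 84.9, 91.2, 97.0 and 103 CPM. Only CTL 2 of the controls fell within the range of the *Cited2* CKO libraries. The fitted log2 fold change of *Flt3* was -0.36 (SE 0.11, unadjusted p = 0.00556, edgeR adjusted p = 0.194), and -0.34 without the library labelled CKO 3 (edgeR adjusted p = 0.277). Of the 7 multipotent and lymphoid progenitor markers, a list that holds *Flt3* and *Il7r*, only *Cd48* was called. *Cd48*, whose protein the sort selected against, rose from a mean of 21.6 to 49.0 CPM (log2 fold change 1.18, edgeR adjusted p = 0.0264), and its part in the values of *Flt3* was not tested. *Csf1r*, the other receptor tyrosine kinase, had 0 to 20 counts per control library and a log2 fold change of 0.13 (SE 0.77).

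No receptor of the myeloid and erythroid growth factors had an unadjusted p under 0.05 in edgeR's quasi-likelihood test. *Csf3r*, the G-CSF receptor, was expressed at 98.7 ± 13.5 CPM in *Cited2* CTL mice and 107 ± 16.2 CPM in *Cited2* CKO mice (SD, n = 5 each). *Epor*, the erythropoietin receptor, was expressed at 25.7 ± 4.17 and 25.7 ± 6.19 CPM. Their log2 fold changes were 0.11 (SE 0.12) and -0.0016 (SE 0.20). In the common beta chain family, *Csf2rb*, the shared signaling chain of IL-3, IL-5 and GM-CSF receptors, had a log2 fold change of 0.20 (SE 0.15). *Csf2rb2*, a beta chain of mice that serves IL-3 alone, had 0.53 (SE 0.25, unadjusted p = 0.0533). The unadjusted p of *Csf2rb2* was 0.0495 with DESeq2, 0.0295 with the GC and length offset and 0.00981 without CKO 4. Of the ligand-binding chains, *Il3ra*, for IL-3, had 0.39 (SE 0.33) and *Csf2ra*, for GM-CSF, had -0.20 (SE 0.15). Over the 10 libraries, *Csf2rb* ranged from 39.5 to 62.6 CPM, *Csf2rb2* from 13.8 to 34.2 CPM, *Il3ra* from 5.67 to 15.2 CPM and *Csf2ra* from 27.2 to 42.7 CPM. Mast cells and basophils also carry IL-3 receptors, and the summed markers of these cells were higher in every *Cited2* CKO library, as given above. The part of such cells in the values of these receptor genes was not tested.

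*Csf2rb* and *Csf2rb2* are neighbors on chromosome 15 that arose by duplication, and per length *Csf2rb2* was at 0.444 ± 0.129 of *Csf2rb* in *Cited2* CTL and 0.560 ± 0.128 in *Cited2* CKO HSCs (SD, n = 5 each), with overlapping ranges. Of their 85-base stretches, 8.91% of *Csf2rb* and 9.21% of *Csf2rb2* occur in the other gene, so reads of these stretches cannot be told apart. Their coding sequences are 95.2% identical over 2628 aligned bases, with 125 differences. Of 2208 windows of 85 coding bases without gaps, 15.9% are identical in both genes. A window with the most differences, 15 bases (capitals), is shown for both genes. It covers bases 306 to 390 of *Csf2rb* and 309 to 393 of *Csf2rb2* from the start codon.
Csf2rb: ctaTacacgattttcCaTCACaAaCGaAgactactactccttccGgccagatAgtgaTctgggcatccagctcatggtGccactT
Csf2rb2: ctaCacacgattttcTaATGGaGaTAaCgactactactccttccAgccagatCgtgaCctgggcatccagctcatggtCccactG

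All 3 TNF and IL-17 receptors had log2 fold changes below 0. *Tnfrsf1a* was expressed at 116, 117, 125, 113 and 119 CPM in the *Cited2* CTL libraries 1 to 5 and at 118, 108, 85.8, 86.1 and 109.9 CPM in the *Cited2* CKO libraries 1 to 5. *Il17ra* was expressed at 162, 174, 144, 207 and 182 CPM in the *Cited2* CTL libraries 1 to 5 and at 158, 179.6, 128, 176 and 103 CPM in the *Cited2* CKO libraries 1 to 5. In both genes some *Cited2* CKO libraries lay at the level of the controls. The log2 fold changes were -0.21 (SE 0.10, unadjusted p = 0.0501) for *Tnfrsf1a*, -0.23 (SE 0.14) for *Il17ra*, and -0.17 (SE 0.13) for *Tnfrsf1b*, the TNF receptor without a death domain. None of the 3 had an unadjusted p under 0.05 in edgeR's quasi-likelihood test with all libraries and the filter on low counts. The sign held for each of them under the 17 alternatives, but the size did not. With the GC and length offset the log2 fold change was -0.027 for *Tnfrsf1a*, -0.15 for *Il17ra* and -0.077 for *Tnfrsf1b*. It was -0.16 for *Tnfrsf1a* (unadjusted p = 0.124) and -0.096 for *Tnfrsf1b* without the library labelled CKO 3, and without CKO 1 it was -0.28 for *Tnfrsf1a* (unadjusted p = 0.0179). *Tnfrsf1b* ranged from 76.5 to 115 CPM in *Cited2* CTL and from 67.8 to 100.1 CPM in *Cited2* CKO libraries.

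The IL-12 receptor chains had log2 fold changes of opposite sign, and neither had an unadjusted p under 0.05. *Il12rb1*, which binds both IL-12 and IL-23, was at 18.6 to 36.5 CPM in *Cited2* CTL and 12.8 to 25.7 CPM in *Cited2* CKO libraries and had a log2 fold change of -0.30 (SE 0.25), and *Il12rb2*, the signaling chain for IL-12, had 0.46 (SE 0.24, unadjusted p = 0.0754). The value of *Il12rb1* was -0.070 with the GC and length offset, -0.14 without CTL 1 and -0.18 without the library labelled CKO 3. *Il12rb2* ranged from 17.4 to 44.4 CPM in *Cited2* CTL and from 32.0 to 65.6 CPM in *Cited2* CKO libraries, with the highest value in CKO 1. Of its 85-base stretches, 22.4% overlap *Serbp1* on the opposite strand, a gene expressed at 441 CPM in control HSCs, and the use of strand in counting is not given in the sources used here.

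**Figure D4:**
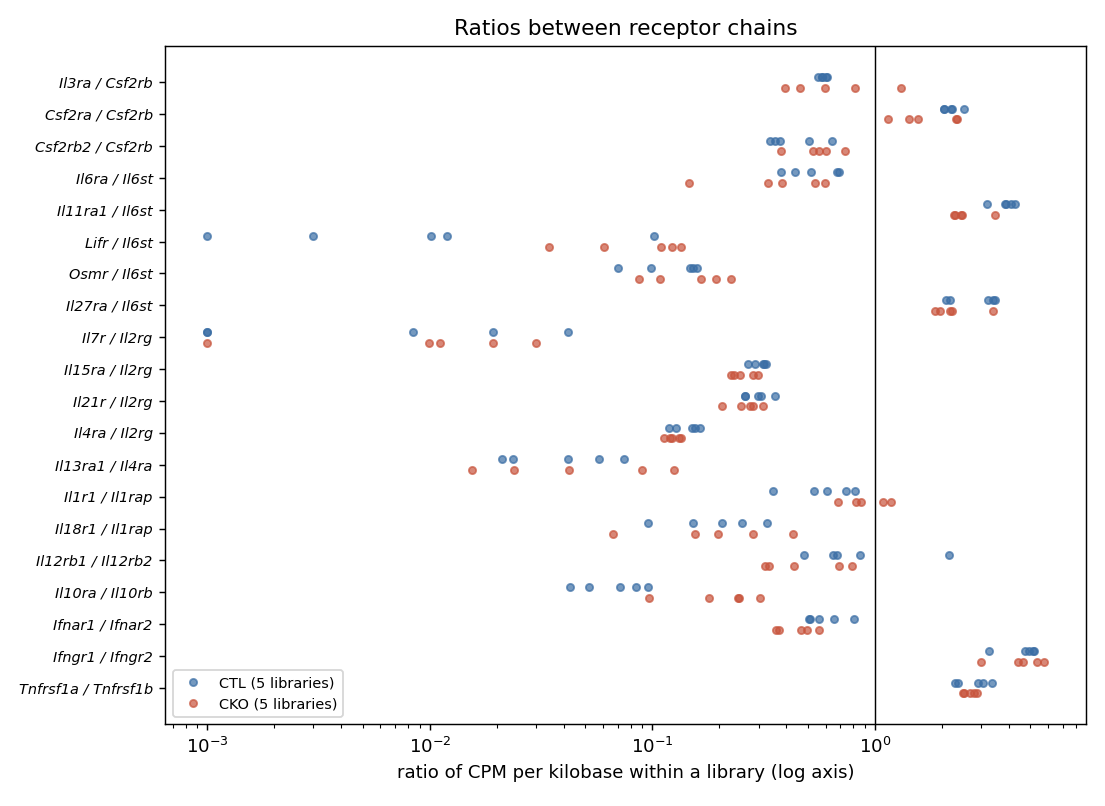
Ratio between the levels of 2 receptor chains within a library, each level in CPM per kilobase, on a log axis with a line at 1. Points are the 5 *Cited2* CTL (blue) and 5 *Cited2* CKO (red) libraries for each of 20 pairs, and ratios under 0.001 are drawn at 0.001. *Il10ra* over *Il10rb* is the pair without overlap, with 0.0426 to 0.0955 in *Cited2* CTL and 0.0965 to 0.304 in *Cited2* CKO libraries.

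The promoters of the receptor genes were searched for short motifs of factors that act downstream of cytokines or in HSCs. RefSeq promoters of GRCm38.p6 were matched for 27 of the 34 genes, with 33 start sites, and the 250 bases before each start site were read on both strands. None was matched for *Csf1r*, *Csf2rb*, *Il10ra*, *Il10rb*, *Il12rb1*, *Il17ra* and *Il27ra*, so these genes were not searched. Letters of the STAT motif, TTCNNNGAA, stood in 7 of the 33 windows (21.2%), against 7.02% of 32851 promoter windows of the same length. The RUNX motif TGTGGT was found in 12.1% (14.0% of all), the E-box CACGTG in 3.03% (6.02% of all), and the PU.1 motif GAGGAAGT in 0 (2.44% of all). No match of one motif overlapped a match of another. Of the 7 genes with STAT letters, *Ifnar2* was the only one with an unadjusted p under 0.05 between the genotypes. The 4 of these windows that overlap no annotated exon are printed with the STAT letters in capitals, 5′ to 3′ on the strand of the gene, for *Ifnar2* (chr16:91372533-91372782, plus strand), *Csf2rb2* (chr15:78305722-78305971, minus strand), *Il12rb2* (chr6:67376189-67376438, minus strand) and *Tnfrsf1b* (chr4:145246871-145247120, minus strand).
Ifnar2: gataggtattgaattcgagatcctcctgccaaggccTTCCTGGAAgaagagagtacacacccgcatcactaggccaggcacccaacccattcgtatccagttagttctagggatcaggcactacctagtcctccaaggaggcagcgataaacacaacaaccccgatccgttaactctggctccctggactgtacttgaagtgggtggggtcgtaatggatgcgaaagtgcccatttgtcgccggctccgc
Csf2rb2: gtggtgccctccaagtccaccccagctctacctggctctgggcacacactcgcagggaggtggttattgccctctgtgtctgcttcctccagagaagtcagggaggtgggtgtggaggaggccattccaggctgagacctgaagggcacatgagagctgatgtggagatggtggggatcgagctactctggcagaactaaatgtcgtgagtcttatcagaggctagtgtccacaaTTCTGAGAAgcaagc
Il12rb2: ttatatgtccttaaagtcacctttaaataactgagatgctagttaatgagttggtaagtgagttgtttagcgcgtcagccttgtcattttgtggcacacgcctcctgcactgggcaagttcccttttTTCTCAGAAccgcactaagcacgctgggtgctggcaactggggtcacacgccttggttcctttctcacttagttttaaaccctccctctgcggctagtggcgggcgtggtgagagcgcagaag
Tnfrsf1b: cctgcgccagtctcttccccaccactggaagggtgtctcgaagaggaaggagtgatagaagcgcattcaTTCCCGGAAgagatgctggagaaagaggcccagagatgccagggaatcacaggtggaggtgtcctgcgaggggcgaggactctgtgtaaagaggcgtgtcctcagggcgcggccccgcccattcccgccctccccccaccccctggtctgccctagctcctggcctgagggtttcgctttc

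A further 160 genes of cytokine signaling were examined in 7 lists, of which 121 were tested. Of these, edgeR called 1, where 0.226% of all tested genes were called, and DESeq2 called 5, where 2.43% were. The gene called by edgeR was *Ccnd1*, which encodes the G1 cyclin D1 and belongs to the list of cytokine response genes. It rose from 69.5 ± 9.47 to 112 ± 18.7 CPM (SD, n = 5 each), with no overlap between the genotypes, a log2 fold change of 0.69 (SE 0.13, edgeR adjusted p = 0.0456). Leaving out each library in turn gave 0.59 to 0.75 for *Ccnd1* with adjusted p from 0.0521 to 0.143, so its call was lost whichever library was left out, and 0.74 with the GC and length offset (edgeR adjusted p = 0.177). Of the 121 tested genes, 29 (24.0%, against 12.9% of all tested genes) had an unadjusted p under 0.05, and their median log2 fold change was -0.04.

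Among the other receptors (19 of 33 genes tested), *Il17re*, the receptor of IL-17C, had a log2 fold change of -0.57 (edgeR adjusted p = 0.230) and was lower in every *Cited2* CKO library than in every *Cited2* CTL library. Of the cytokine ligands, 19 of 44 were tested and those with the smallest p were *Il12a*, the p35 chain of IL-12, with a log2 fold change of 0.49, and *Ebi3*, the beta chain of IL-27, with 0.32, and 0.44 without the library labelled CKO 3 (edgeR adjusted p = 0.104).

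Of the genes that act downstream of the receptors, those with the smallest p in each list are given here, and edgeR called none of them. *Jak3*, the kinase bound by the gamma chain, had a log2 fold change of -0.24 (SE 0.08) and 0.0397 with the GC and length offset, and *Jak2*, a kinase of the *Epor* and beta chain receptors, had 0.27 (SE 0.14), and 0.15 with that offset. Of the 8 STAT factor genes, 6 had a log2 fold change below 0, with *Stat3* at -0.22 and *Stat6* at -0.17. *Stat6* was at -0.047 with the GC and length offset and at -0.11 without the library labelled CKO 3, and the median of the list moved from -0.12 to -0.039 and -0.036. Among 21 negative regulators, *Cish*, a feedback inhibitor induced by STAT5, had a log2 fold change of -0.49 (edgeR adjusted p = 0.158), and DESeq2's Wald test called it (adjusted p = 0.0486). *Ptpn2*, a phosphatase of JAK kinases, had 0.24, and 0.053 with the GC and length offset. *Traf1* and *Traf5*, adaptors of TNF receptors, had -0.68 and -0.75 among 27 adaptor genes, of which 17 were below 0, and 13 with the GC and length offset.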

How the data were processed

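RNA of sorted HSCs of 10 mice was sequenced. The authors used HISAT2 and the GRCm38 genome for alignment of the single-ended reads and Rsubread for counting, and deposited raw counts per gene symbol and each gene's length in bases. Annotation, strand, multi-mapping and duplicate handling are not given in the sources used here. No gene over 500 bases exceeded 1.45 to 1.72 counts per base in a library, Actb and Eef1a1 included, and no receptor gene exceeded 0.630. Had the counts been limited per position, the levels per length of the highest genes would be understated, which was not tested. Samples were grouped by their labels, which give no batch.

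The counts of all genes were compared between the genotypes with edgeR 4.0.16 under R 4.3.3 (filterByExpr, which all 34 receptor genes passed, TMM, robust quasi-likelihood F test, Benjamini-Hochberg adjustment over 14165 genes, called at an adjusted p under 0.05 with a fold above 20%). The common biological coefficient of variation was 25.3%. Standard errors cover the spread between libraries, and are widest for receptors with few counts. Positions and shared stretches came from the GENCODE annotation of GRCm38, promoters from RefSeq. The fits were tested on simulated data with known changes, where edgeR recovered 132 of 200 changed genes and made 6 false calls. These counts are not split by the size of the change, so they do not give the recovery of small differences.

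The receptor genes, related lists and markers were chosen with earlier results of these data known. Receptor genes that were called, had an unadjusted p under 0.05, did not overlap in CPM or were among the 5 highest per length are given by library, the rest by range or fold change, and from each related list the called genes or the 2 with the smallest p, of which 1 gene is not reported here. *Cd48*, *Serbp1*, *Hmgxb3*, *Gm13305*, *Il11ra2* and the mast cell genes were named with their values known, and *Gm20489* and *Gm21970* for the sequence they share. The alternatives were DESeq2's size factors, no filter, DESeq2 1.42.0, limma-voom (limma 3.58.1), a block for the replicate number, a GC and length offset per library (loess, span 50%) alone and with that block, and each library left out in turn.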

Additional observations from a re-analysis of the deposited data

Results flagged for a closer look

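The CPM of 47 genes was examined in both genotypes for a library at the edge of its group whose gap to the nearest other library was more than 0.71 of the group's range (Dixon's 95% value for 5 samples). For independent, normally distributed values, chance gives about 1 in 20. The groups here come from the same libraries, some rest on few counts, and some genes were picked by p or with values known. That share therefore need not hold here. Of 94 groups, 9 held a library with such a gap. Among the receptor genes these were *Csf3r* in CTL 1 (122 CPM, nearest 95.8), *Lifr* in CTL 3 (9.70 CPM, nearest 1.22), *Il4ra* in CTL 4 (71.4 CPM, nearest 85.8), *Ifngr2* in CTL 1 (56.2 CPM, nearest 42.2), *Il1r1* in CKO 2 (63.1 CPM, nearest 41.7) and *Il12rb2* in CKO 1 (65.6 CPM, nearest 40.9). Among the other genes named they were *Il12a* in CKO 4 (103 CPM, nearest 68.0), *Stat6* in CTL 4 (177 CPM, nearest 158) and *Cited2* in the library labelled CKO 3 (120 CPM, nearest 8.30). The causes were not tested.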

How the results depend on the processing

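Of the 34 receptor genes, 23 kept the sign of their log2 fold change under all 17 alternatives and 11 did not. The number of called receptor genes, 0, became 2 with DESeq2 and 0 to 1 when each library was left out, with the 1 call (*Il10ra*) without the library labelled CKO 3. The number of called related genes, 1, became 2 without the filter on low counts, 5 with DESeq2, 0 with limma-voom, the replicate block and the GC and length offset alone or with the block, and 0 to 1 when each library was left out. *Cited2* was at a log2 fold change of -2.51 (adjusted p = 0.328), -3.99 with limma-voom (adjusted p = 0.0341) and -4.92 to -2.23 when each library was left out, the first without the library labelled CKO 3 (adjusted p = 1.82e-06). With the GC and length offset, alone and with the replicate block, the log2 fold change changed sign for *Csf2ra* (0.00607 and 0.00869), *Epor* (0.223 and 0.214), *Il27ra* (0.0204 and 0.0463), *Il1rap* (-0.105 and -0.0997) and *Jak3* (0.0397 and 0.051), and with the block also for *Il18r1* (-0.0144). *Epor* had 0.00485 with DESeq2's size factors and 0.000312 with DESeq2, and *Il18r1* -0.0276 with limma-voom. When each library was left out, the log2 fold change ranged from -0.395 to 0.389 for *Csf1r*, -0.125 to 0.109 for *Epor*, -0.0596 to 1.15 for *Il7r*, -0.0398 to 0.101 for *Il4ra*, -0.110 to 0.00647 for *Il15ra*, -0.0767 to 0.374 for *Il18r1*, -0.0724 to 0.0965 for *Il10rb* and -0.0713 to 0.244 for *Ifngr2*. The causes were not tested. The samples share replicate numbers only, with correlations of same-numbered samples of 0.0096, -0.095, 0.208, 0.0027 and 0.193, and CTL 5 alone correlated best with its own number. The replicate block gave 15 higher and 9 lower calls over all genes, against 17 and 15. At a minimum of 10 counts in every sample, 30 receptor genes remained. Each of *Csf1r*, *Il7r*, *Il13ra1* and *Lifr* had a library with at most 5 counts. Without the library labelled CKO 3, the log2 fold change of 11 receptor genes moved by over 1.5 times or changed sign, none of them called, among them *Il18r1* (0.316), *Ifngr2* (0.231), *Il4ra* (0.101) and *Il1rap* (0.0743).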
